A study of Mus musculus with 6 samples.

Results

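Actin filaments are gathered into bundles and tied to adhesion sites by a set of cytoskeletal proteins, and 10 genes for such proteins were followed in E18.5 mouse embryos, in RNA of the whole brain. The genes were Lasp1, Pls3, Zyx, Vasp, Enah, Evl, Actn1, Actn4, Flna and Fscn1, and the probe sets followed were all those of the Affymetrix array annotated to exactly 1 gene, that gene being in the set. This gave 32 probe sets of the 45037 on the array that are not controls, and 34945 of those name a single gene. The set was chosen by the mutant minus wild-type log2 difference of Lasp1 and Pls3 probe sets, which read higher in the mutant. The differences of these genes are therefore given as a description, and a threshold passed by Lasp1 or Pls3 is not read as support.

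The samples were 3 Foxf2 mutant brains and 3 wild-type brains, all taken at E18.5, late in gestation, and on a C57/bl6 background, with total RNA of 1 sample on each array. Foxf2 is a forkhead transcription factor gene active in pericytes, the cells that wrap brain capillaries, and the arrays ask how its mutation bears on the brain's RNA. The labels describe neither the Foxf2 allele, nor the sex or litter of the embryos, nor whether RNA was pooled. Values are MAS5 intensities, the linear signal that Affymetrix software derives for a probe set, and each difference is that of log2(intensity + 16), mutant minus wild type. Foxf2 itself read 8.06, 3.31 and 7.57 in mutant brains, against 18.6, 24.4 and 13.8 in wild-type brains, on its brighter probe set. The groups did not overlap, but both lay near the floor of the array, and this probe set may lie outside the altered part of the gene.

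LIM domain adaptors and actin crosslinkers work together where actin meets the membrane. LASP1 and zyxin carry LIM domains, zinc-binding folds that hold other proteins, and zyxin brings Ena/VASP proteins to adhesion sites, where these favour the growth of actin filament ends. Plastin 3, fascin, the alpha-actinins and filamin A join filaments to each other, fascin in tight parallel bundles of filopodia and filamin A in looser networks. In the developing brain these proteins are known from growth cones and migrating neurons, and mutation of human FLNA or loss of Ena/VASP proteins in mice disturbs neuronal migration.

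The 250 bases before the annotated starts of Lasp1 and Pls3 are shown because these genes hold the higher probe sets and Foxf2 encodes a DNA-binding factor. The sequences are those of RefSeq on GRCm38.p6, with Lasp1 at chr11:97799315-97799564 on the plus strand and the second of 3 listed Pls3 starts at chrX:75875171-75875420 on the minus strand. Capitals mark the GC box GGGCGG or its reverse complement.
Lasp1: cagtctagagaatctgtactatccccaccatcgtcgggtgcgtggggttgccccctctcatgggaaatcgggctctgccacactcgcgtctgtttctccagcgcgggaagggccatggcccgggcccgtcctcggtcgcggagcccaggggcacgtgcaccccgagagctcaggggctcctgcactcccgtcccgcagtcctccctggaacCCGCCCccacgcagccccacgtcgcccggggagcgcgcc
Pls3: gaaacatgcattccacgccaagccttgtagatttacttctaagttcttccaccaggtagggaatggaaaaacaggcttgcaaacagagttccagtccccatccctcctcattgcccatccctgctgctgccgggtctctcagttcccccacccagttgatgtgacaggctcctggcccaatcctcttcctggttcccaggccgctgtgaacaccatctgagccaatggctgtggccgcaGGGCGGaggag
Both strands were searched for the forkhead motifs GTAAACA and ATAAACA, which differ in their first letter, for the CArG box bound by serum response factor, for the GC box and for TATAAA. All 10 genes matched the RefSeq table, with 13 start windows between them. The forkhead motifs lay in 0 of these 13 windows, against 3.17% (GTAAACA) and 4.16% (ATAAACA) of 32851 windows of all genes. The CArG box also lay in 0 of the 13, against 1.47% of all windows. The GC box was in 8 of the 13 windows, each of a different gene, against 32.7% of all windows, and TATAAA was found before Fscn1 alone among the 10 genes, against 12.4% of all windows. The Lasp1 window had a GC content of 70.4% with 24 CpG dinucleotides, and the Pls3 window shown 56.4% with 5, where the median window had 52.4% and 6. The first Pls3 window had 54% with 4, and the third 41.6% with 3. Absence of these letters says nothing about binding elsewhere.

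Over all 27022 probe sets bright enough to be tested, 0.366% were past an adjusted p of 0.05 and higher in the mutant, and 0.0222% past it and lower (limma on log2(value + 16), Benjamini-Hochberg adjustment). Of the 32 member probe sets, 30 were bright enough, 2 were past the threshold and higher (Lasp1 1439264_x_at and Pls3 1423725_at) and 0 past it and lower. The rule chose the set for these, so nothing is read from that count. At an unadjusted p under 0.05 there were 7 member sets reading higher and 5 reading lower, where the background is 7.76% and 5.79% of tested probe sets. The groups did not overlap for 6 member probe sets above wild type and 7 below it, where the background is 10.9% and 9.38% of tested probe sets. Of the 7 reading higher, 5 were of Lasp1 and 1 of Pls3, and of the 6 above wild type 4 and 1. These genes chose the set, so nothing is read from these counts either. The other members had 20 tested sets, with 1 higher and 4 lower at that unadjusted level. The median log2 difference was -0.04 over the tested members and -0.01 over all tested probe sets.

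Lasp1 encodes an actin-binding LIM and SH3 domain protein of focal adhesions and growing cell edges. It had 9 probe sets, 7 with the suffix _x_at, which Affymetrix gives to sets with probes that also match other sequences, and 2 with the plain suffix _at of sets held to be unique. The Lasp1 signal was higher in the mutant on 6 of the _x_at sets and lower on the other, and on both plain sets it read slightly lower with overlapping groups. The largest difference was on 1439264_x_at, which read 774, 1071 and 1143 in mutant brains, against 314, 420 and 416 in wild-type brains. Its means were 996 ± 195 in mutant brains and 383 ± 60.1 in wild-type brains (SD, n = 3 each), a log2 difference of 1.33 ± 0.15 (SE). The 3 mutant values exceeded the 3 wild-type values, with mutant array 1 the lowest of the mutants and wild-type array 1 the lowest of the wild types.

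A second Lasp1 set, 1438633_x_at, read 617, 1044 and 853 in mutant brains, against 437, 423 and 393 in wild-type brains. Its log2 difference of 0.95 ± 0.16 (SE) stood just outside the threshold, and the mutant values again exceeded the wild-type values, with mutant array 1 the closest to them. The brightest Lasp1 set, 1438634_x_at, read 1105, 1262 and 1236 in mutant brains, against 860, 891 and 946 in wild-type brains. With a log2 difference of 0.41 ± 0.07 (SE) it was also not past the threshold, and the groups did not overlap. The fourth set without overlap and higher was 1455470_x_at, with 915, 830 and 873 in mutant brains, against 731, 740 and 818 in wild-type brains, a log2 difference of 0.19 ± 0.07 (SE).

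Lasp1 set 1456309_x_at went the other way. It read 261, 366 and 286 in mutant brains, against 377, 438 and 401 in wild-type brains, a log2 difference of -0.41 ± 0.12 (SE), and every mutant array lay below every wild-type array. The 2 remaining _x_at sets were dim, with 16.7 to 27.2 in mutant brains and 10.1 to 18.9 in wild-type brains and log2 differences of 0.34 and 0.36, which ran from 0.13 to 0.65 with other settings of the offset and arrays. The wild-type mean of 1 of them, 1456469_x_at, was 12.8, under the filter intensity of about 13.2.

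The plain Lasp1 sets, both designed from 1 representative sequence in the platform annotation, did not show the higher signal. The brighter, 1460173_at, read 567, 569 and 562 in mutant brains, against 569, 633 and 587 in wild-type brains. Its log2 difference was -0.07 ± 0.06 (SE), and mutant array 2 read nearly the same as wild-type array 1. The dimmer, 1448207_at, read 120, 99.9 and 108 in mutant brains, against 135, 123 and 104 in wild-type brains, a log2 difference of -0.12 ± 0.11 (SE). The 7 _x_at sets each had a representative sequence of their own. The Lasp1 differences spanned 1.74 log2 units from lowest to highest set, where the median span over 6199 genes with several tested sets was 0.21. Lasp1 has more sets than most of these genes, and a span widens with the number of sets.

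Pls3 encodes plastin 3, a calcium-regulated protein that packs actin filaments into bundles. Its single probe set, 1423725_at, has the plain suffix. It read 373, 430 and 424 in mutant brains, against 216, 234 and 219 in wild-type brains. The means were 409 ± 31.6 in mutant brains and 223 ± 10.1 in wild-type brains (SD, n = 3 each), a ratio of 1.84 and a log2 difference of 0.83 ± 0.08 (SE). Every mutant array lay above every wild-type array, and the lowest mutant value was mutant array 1. With no second probe set, the Pls3 difference has no check within the gene.

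Without wild-type array 1 or 2, or mutant array 2 or 3, limma called 0 probe sets on the whole array, these included. The log2 difference of Pls3 stayed between 0.72 and 0.89 and that of Lasp1 1439264_x_at between 1.20 and 1.50 over all settings.

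**Figure D1:**
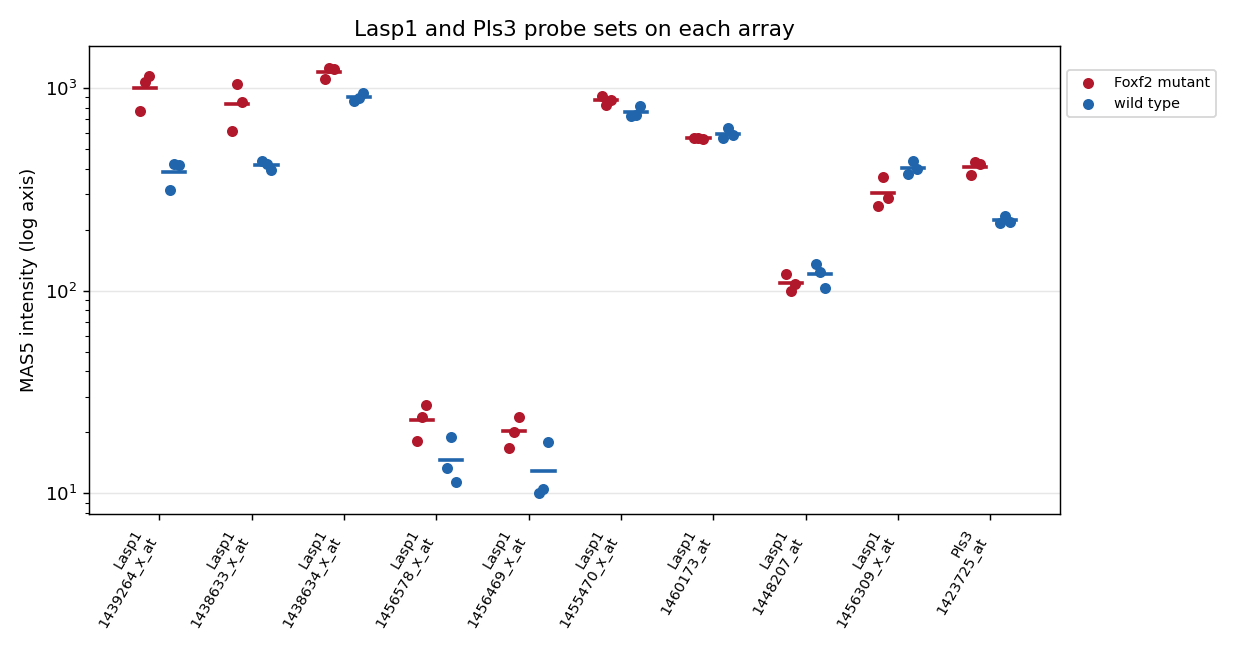
MAS5 intensity on a log axis for the 9 Lasp1 probe sets, ordered by difference, and the Pls3 probe set, with each array as a point and each group mean as a bar. Mutant points lie above wild-type points without overlap on 4 of the Lasp1 _x_at sets and on Pls3, below them on 1456309_x_at, and among them on both plain Lasp1 sets.

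Zyx encodes zyxin, the LIM protein that recruits Ena/VASP proteins. Its plain probe set read 87.1, 105 and 91.6 in mutant brains, against 98.8, 87.8 and 92.1 in wild-type brains, a log2 difference of 0.02 ± 0.10 (SE) with overlapping groups. The other Zyx set, 1438552_x_at, read 2.63 to 8.51 in mutant brains and 2.55 to 5.41 in wild-type brains, too dim to be tested.

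The Ena/VASP family is formed by Vasp, Enah (Mena, the neural member) and Evl. Vasp read 97.7, 112 and 99.5 in mutant brains, against 125, 113 and 121 in wild-type brains. Its log2 difference was -0.19 ± 0.09 (SE), and the groups were parted by a narrow gap between mutant array 2 and wild-type array 2. Enah had 6 sets, of which 5 were bright enough, and 4 of these 5 read lower. Enah set 1442223_at read 109, 104 and 87.2 in mutant brains, against 138, 121 and 134 in wild-type brains, a log2 difference of -0.34 ± 0.10 (SE) without overlap. The brightest Enah set, 1424800_at, read 1285, 1176 and 1127 in mutant brains, against 931, 1106 and 1241 in wild-type brains, with overlapping groups and a log2 difference of 0.14 ± 0.10 (SE). A second set from the same representative sequence, 1424801_at, had -0.06 ± 0.08 (SE). The other tested Enah sets had -0.04 and -0.11, and 1431162_a_at, with 5.21 to 14.4 in mutant brains and 8.24 to 13.8 in wild-type brains, was too dim to be tested.

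Evl, the Ena/VASP-like gene, had 4 tested sets with log2 differences from -0.12 to 0.04. The set without overlap, 1450106_a_at, read 456, 491 and 445 in mutant brains, against 522, 494 and 500 in wild-type brains, a difference of -0.12 ± 0.07 (SE). Its bright partner 1434920_a_at read 1025, 889 and 883 in mutant brains, against 838, 889 and 989 in wild-type brains, and the groups overlapped. Across the Ena/VASP genes, 0 of 10 tested sets passed the adjusted threshold by limma, and 1 was at an unadjusted p under 0.05 (Enah 1442223_at, lower).

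The alpha-actinins and filamin A crosslink filaments and anchor them to integrins. Actn4 read 272, 250 and 246 in mutant brains, against 253, 277 and 275 in wild-type brains, a log2 difference of -0.06 ± 0.07 (SE). The brightest Actn1 set, 1428585_at, read 131, 151 and 128 in mutant brains, against 150, 153 and 160 in wild-type brains, a difference of -0.16 ± 0.09 (SE). The groups overlapped in both genes, through mutant array 1 for Actn4 and mutant array 2 for Actn1. The other Actn1 sets, of 1 shared representative sequence, read 12.4 to 22.2 in mutant brains and 12.4 to 21.8 in wild-type brains. Flna read 247, 240 and 237 in mutant brains, against 234, 256 and 254 in wild-type brains, a difference of -0.04 ± 0.07 (SE).

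Pls3 and Flna lie on the X chromosome. Xist, transcribed from the inactive X, read 1002, 13.0 and 2400 in mutant brains 1, 2 and 3, against 1956 to 2186 in wild-type brains, and Eif2s3y, on the Y chromosome, gave 260 in mutant brain 2 and at most 2.12 elsewhere. Pls3 read 430 in mutant brain 2 and 373 and 424 in the other mutants, and the part of sex in its difference was not tested. Flna read 240 in mutant brain 2, between the other mutants.

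Fscn1 encodes fascin, the bundling protein of filopodia and growth cones. Its 4 probe sets all carry 1 representative sequence, and each parted the groups, but not in 1 direction. The brightest, 1416514_a_at, whose suffix marks sets that match several transcripts of a gene, read 3418, 3410 and 3407 in mutant brains, against 3102, 3129 and 3181 in wild-type brains. That is a log2 difference of 0.12 ± 0.05 (SE) from means of 3411 ± 5.75 in mutant brains and 3137 ± 39.7 in wild-type brains (SD, n = 3 each). The 3 plain sets read lower. Set 1416516_at read 93.7, 100.4 and 104 in mutant brains, against 133, 116 and 130 in wild-type brains, a difference of -0.30 ± 0.09 (SE). Set 1416515_at had -0.21 ± 0.08 and set 1448378_at -0.19 ± 0.07 (SE), each with all mutant arrays below all wild-type arrays. Of the 4 sets, 0 passed the adjusted threshold (adjusted p 0.200 to 0.343, limma), while 1 higher and 3 lower sets had an unadjusted p under 0.05, where the background is 7.76% higher and 5.79% lower.

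Opposite non-overlapping sets within a gene also occurred elsewhere on the array. Of 1103 genes with 4 or more tested probe sets, 11.1% had a set with the mutant wholly above and another with it wholly below. The 4 Fscn1 sets spanned 0.43 log2 units, and 10.6% of 2710 groups of sets sharing a gene and a representative sequence spanned as much or more. Those groups differed in their number of sets, and a span widens with that number.

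**Figure D2:**
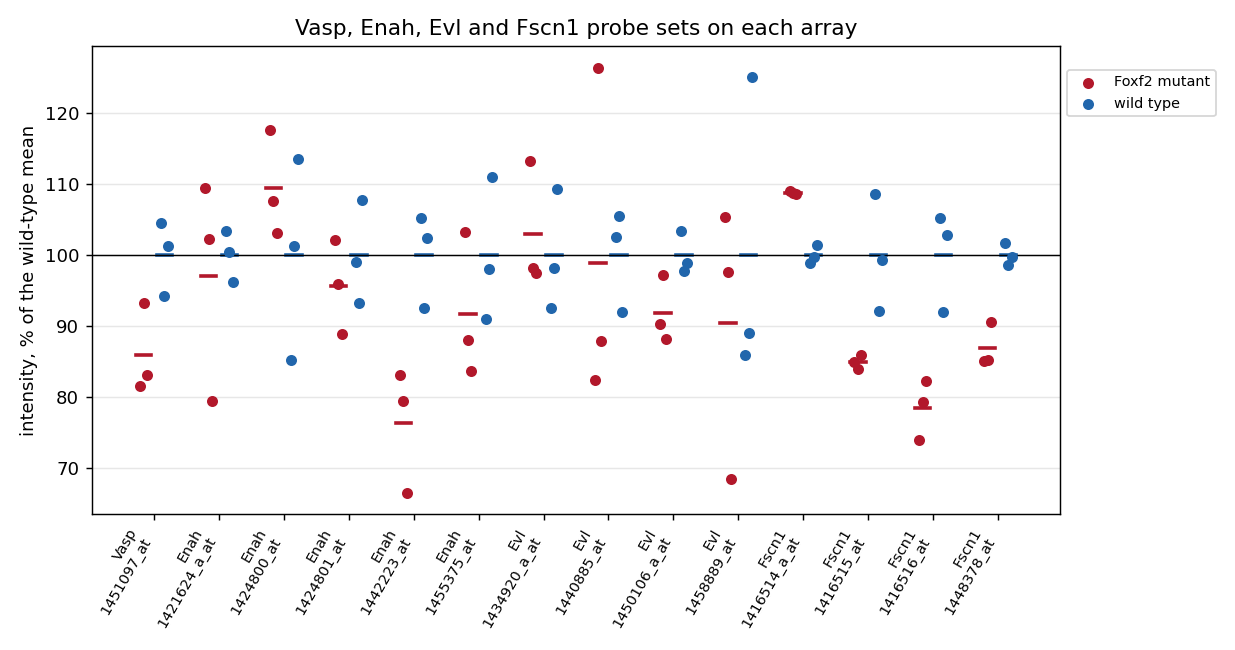
Intensity as a percentage of the wild-type mean for the tested Vasp, Enah, Evl and Fscn1 probe sets, with each array as a point and each group mean as a bar. The Fscn1 set 1416514_a_at lies above wild type and the other 3 Fscn1 sets below it, while most Enah and Evl sets overlap.

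Apart from Lasp1 and Pls3, the 8 other genes had 20 tested probe sets, of which 5 read higher and 15 lower, with a median log2 difference of -0.06. Of all 27022 tested probe sets, 13130 read higher and 13892 lower. The groups did not overlap for 1 of the 20 above wild type and 6 below it, where the background is 10.9% and 9.38% of tested probe sets. Of these 7 sets, 4 were those of Fscn1, which share a sequence, and the others were Vasp 1451097_at, Enah 1442223_at and Evl 1450106_a_at. Adjusted p-values of the 20 ran from 0.200 to 0.982 (limma), and 0 passed. The Zyx, Actn1, Evl and Enah differences nearest to 0 changed sign under some settings, while those of Fscn1, Vasp and Enah 1442223_at kept theirs in every setting run.

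**Figure D3:**
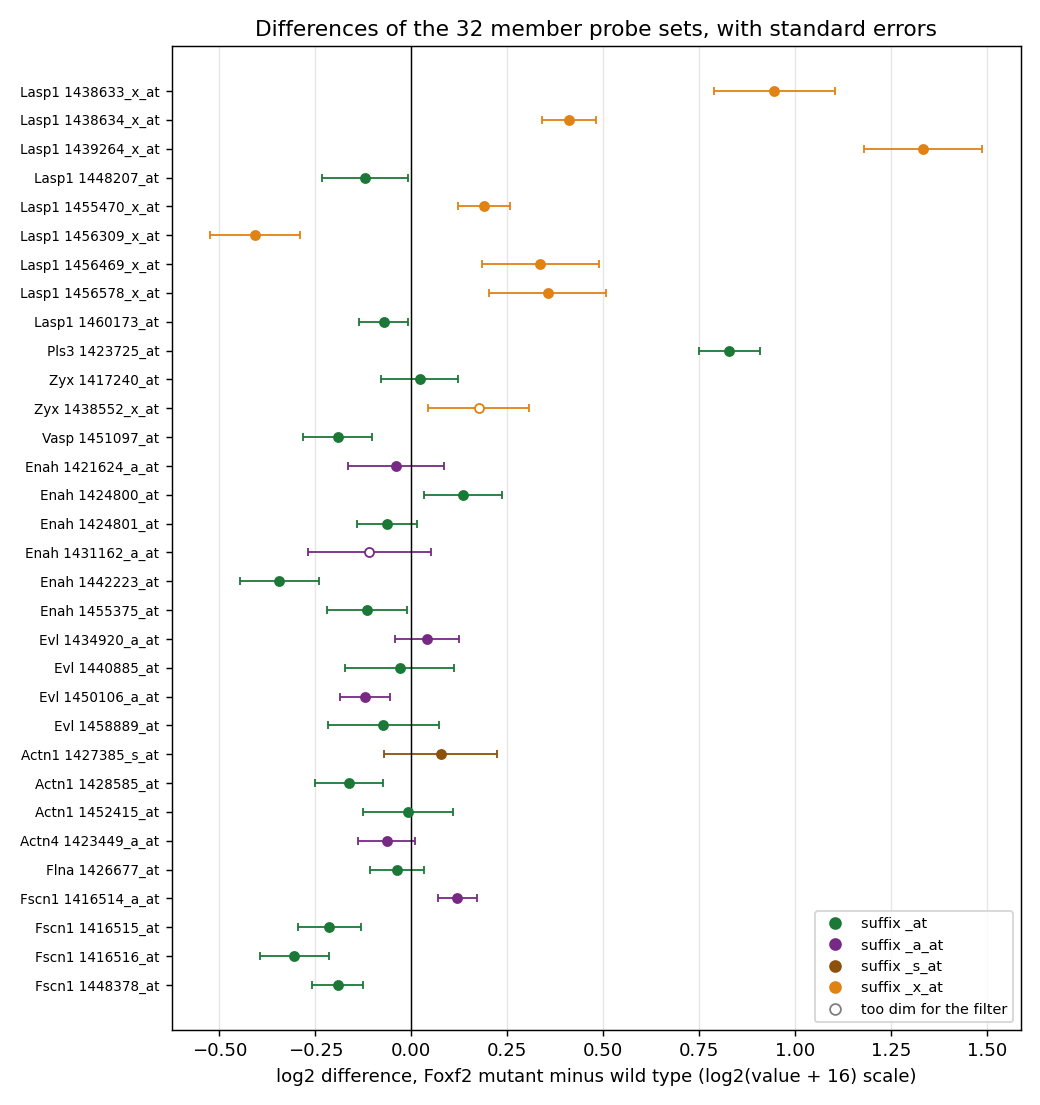
Log2 difference, mutant minus wild type, with its standard error for the 32 member probe sets, coloured by suffix, with open points for the 2 sets too dim to be tested. The Lasp1 _x_at sets run from -0.41 to 1.33, Pls3 stands at 0.83, and all sets of the other genes lie between -0.34 and 0.18.

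Since the higher Lasp1 signal was on _x_at sets, the members were set against all probe sets of like suffix. Over the 1627 tested _x_at sets, 2.46% were past the threshold and higher in the mutant, against 0.144% of the 20163 plain _at sets. The median log2 difference was 0.10 over all _x_at sets and -0.01 over all plain sets. The 7 Lasp1 _x_at sets, which were the tested _x_at members, had a median of 0.36, and the 17 plain sets of the members had a median of -0.07. The 0.36 was the value of a dim Lasp1 set, 1456578_x_at, with means of 23.1 in mutant brains and 14.5 in wild-type brains. On 4 of the 7 Lasp1 _x_at sets the mutant lay wholly above wild type. The background for this is 28.9% among all _x_at sets and 9.32% among plain sets. Among all _x_at sets, Lasp1 1439264_x_at stood at percentile 99.9, 1438633_x_at at 99.2, 1438634_x_at at 86.2 and 1456309_x_at at 1.54. Pls3 stood at percentile 99.9 of all plain sets, and the plain Lasp1 sets at 24.4 and 35.1. The values behind these ranks chose the set, so they describe it and test nothing.

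**Figure D4:**
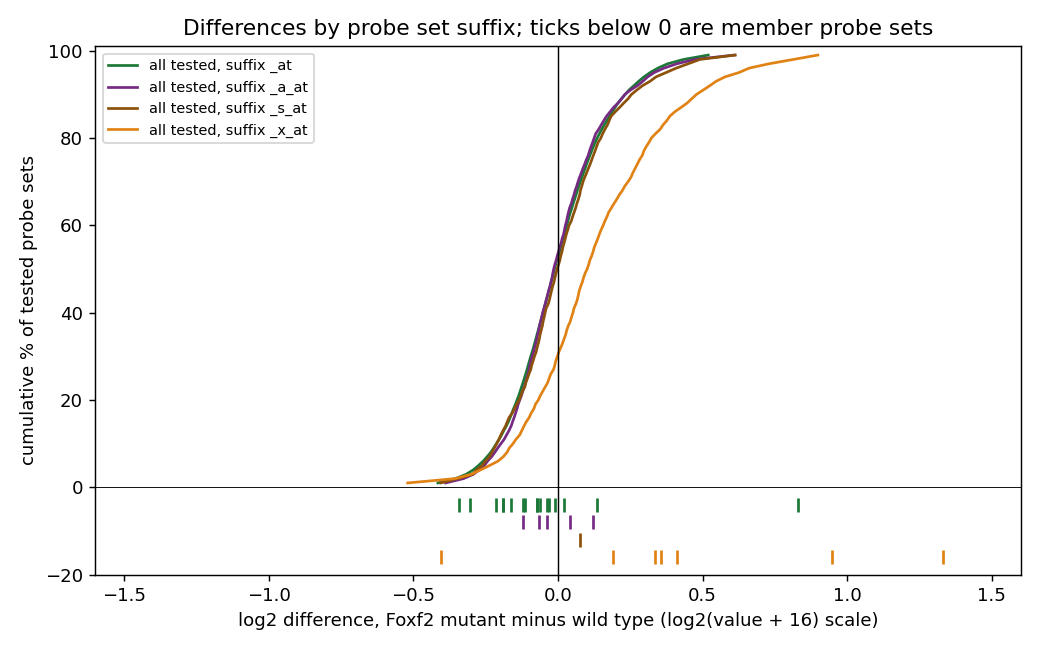
Cumulative percentage of all tested probe sets against their log2 difference, mutant minus wild type, drawn for each suffix from percentiles 1 to 99, with member probe sets as ticks under the axis in the colour of their suffix. The _x_at curve is shifted towards higher values in the mutant (median 0.10) while the other curves are centred near 0.

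By the mean absolute difference of centred log2 values over the 6 arrays, the probe sets of other genes most like Lasp1 1439264_x_at were those of Ywhaz (0.09), Prdx4 (0.15) and Anks1b (0.16). Ywhaz 1436981_a_at read 267, 335 and 399 in mutant brains, against 98.2, 118 and 154 in wild-type brains. The sets most like Pls3 were those of Fen1 (0.05), Ddx5 (0.06) and Cox6c (0.06), with Fen1 1436454_x_at at 205, 216 and 217 in mutant brains, against 109, 110 and 115 in wild-type brains. All 6 parted the groups, and Anks1b alone of the 6 was not past the threshold. Over all tested probe sets, 10.9% had the mutant wholly above and 0.366% were past the threshold and higher. The 6 were picked for likeness to sets that rose in the mutant, so nothing is read from this.

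Other genes of the actin system were taken as 4 lists, and 0 of their genes passed the adjusted threshold in either direction by limma. Among other bundlers and crosslinkers, 53 tested probe sets of 21 genes had 11 higher and 3 lower sets before adjustment (p under 0.05), with a median log2 difference of 0.05. The background at that level is 7.76% higher and 5.79% lower. Most of the 11 higher sets were of Marcks and Marcksl1, described next, so they were not spread evenly over the 21 genes. Marcks, a membrane-bound actin crosslinker, read 2375, 2396 and 2698 in mutant brains, against 1064, 1506 and 2004 in wild-type brains, on 1456028_x_at (log2 difference 0.75). Of its 7 sets, 5, 3 of them plain, had all mutant arrays above all wild-type arrays, with differences from 0.19 upward. The background for this is 10.9% of tested probe sets, and 28.9% of those with the suffix _x_at. The plain Marcks set 1430311_at went the other way, with 47.9 to 50.1 in mutant brains, against 50.2 to 74.0 in wild-type brains. Marcksl1, a relative of Marcks, had 0.55 on 1435627_x_at and 0.43 on 1435415_x_at, but 0.07 and -0.01 on its 2 brightest sets.

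Among other LIM genes, 56 tested sets of 29 genes had 7 higher and 1 lower set at that level, with a median of 0.02. Pdlim5, a PDZ and LIM protein that binds alpha-actinin, read 19.1, 21.5 and 19.8 in mutant brains, against 11.0, 9.43 and 9.30 in wild-type brains, on 1422862_at (log2 difference 0.48), and had 0.08 on its brightest set. Ldb3, a Z-disc LIM protein of striated muscle, read 19.9, 19.2 and 42.7 in mutant brains, against 9.61, 12.2 and 8.26 in wild-type brains (log2 difference 0.69, and 0.45 without mutant array 3). On this Ldb3 set and on Pdlim5 1422862_at, every wild-type value lay under the filter intensity of about 13.2. Both sets were bright enough to be tested only through the mutant arrays, so nothing is read from their differences. The summed signal of 8 skeletal muscle markers ran from 104 to 1888 in mutant brains, the highest being mutant array 3, and from 82.3 to 103 in wild-type brains. The part of muscle RNA in the Ldb3 value of mutant array 3 was not tested.

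Of the focal adhesion partners, 30 tested sets of 14 genes had 1 higher and 5 lower sets at that level, with a median of -0.07. Raph1, lamellipodin, which binds Ena/VASP proteins, had -0.53 on 1434303_at, where the groups overlapped and the difference was -0.32 without wild-type array 1, and 0.10 on its brightest set. Tln1, the integrin activator talin 1, had -0.35 on its dim set, or -0.21 without mutant array 3, and -0.0012 on its bright one. Of actin and its turnover factors, 53 tested sets of 23 genes had 6 higher and 4 lower, with a median of 0.06. The largest differences there were on the 2 sets of Cap1, a cyclase-associated protein that recycles actin, at -1.30 and -1.18. Both rested on mutant array 3, which read 15.4 and 14.0, while the other 5 arrays read 275 to 438, and without mutant array 3 the differences were -0.16 and -0.05.

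Marker lists placed the tissue and the other cells it held. All 8 neuronal markers, among them Tubb3 and Stmn2, were above the filter, and their summed signal was 18208 to 18599 in mutant brains and 18102 to 18335 in wild-type brains. The summed signal of 8 endothelial markers was 746 to 798 in mutant brains and 933 to 949 in wild-type brains, and that of 8 radial glia and astrocyte markers 9163 to 9686 in mutant brains and 8095 to 8976 in wild-type brains, both without overlap. Of these, 0 of 8 endothelial markers and 1 of 8 glial markers (Vim, on an _x_at set) passed the threshold. Of the endothelial markers 3 read higher (Ocln, Pecam1 and Cdh5) and 5 lower, and most of the gap between the sums came from Cldn5, with means of 278 in mutant brains and 380 in wild-type brains, and Kdr, with 112 in mutant brains and 153 in wild-type brains. Of the glial markers 5 read higher and 3 lower (Hes5, Pax6 and Nes). The largest glial difference in means was on Vim, with 1640 in mutant brains and 1195 in wild-type brains. Without Vim, the summed glial signals of the groups overlapped. Of 8 pericyte markers, 7 were above the filter (all but Anpep), and of these 1 read higher and 6 lower, 0 passed, and the median log2 difference was -0.15. Their summed signal, Anpep included, was 1257 to 1492 in mutant brains and 1367 to 1675 in wild-type brains, with overlap. Pdgfrb read 119 to 141 in mutant brains, against 154 to 162 in wild-type brains. The dim Atp13a5 read 16.8 to 22.1 in mutant brains, against 27.4 to 43.7 in wild-type brains. The groups overlapped for the other pericyte markers, and over all tested probe sets 9.38% had the mutant wholly below. In whole brain RNA, fewer cells of a type and less RNA per cell cannot be told apart, and the part of these cells in the member differences was not tested. All 8 meningeal fibroblast markers read higher without passing, with summed signals of 1967 to 2430 in mutant brains and 1894 to 2127 in wild-type brains. The arrays' own median intensities were 24.3 to 25.5 for mutant brains and 23.1 to 23.6 for wild-type brains.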

How the data were processed

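Total RNA of whole brains was labelled with biotin by the Affymetrix procedure, per the labels' protocols. The deposited intensity values are MAS5 signals on a linear scale, and MAS5 is named, without a version, in the submitters' processing notes. The authors had scaled the arrays to a common trimmed mean, so they were not normalized again, and the scaling hides any change in total RNA. Dim MAS5 signals scatter widely once logged. Genes came from the platform annotation.

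The scale was log2(value + 16). The fit (limma 3.58.1 under R 4.3.3, lmFit and eBayes with an intensity trend) took mutant minus wild type, two-sided, over 45037 probe sets after 64 controls were left out. Benjamini-Hochberg adjustment covered the 27022 probe sets at or above the 40th percentile of mean log2 value, an intensity of about 13.2. Differences are on this scale, which understates those of dim probe sets. Precision is limited by the 3 arrays per group, and the labels do not say whether samples shared a litter or were pooled, so the p-values reflect only how these 6 arrays vary. On simulated data for this comparison over 45037 probe sets, log2 changes of 0.5 were recovered in 21.6% of cases and of 1 in 77.6%. Of the simulated calls, 3.49% were false. The simulated noise was independent between probe sets and arrays, with no shift of a suffix class. The share of false calls in the real data was therefore not measured. The members and lists were chosen with earlier results of these data known. All member probe sets are named, and in each related list those past the threshold or else the 2 with the largest absolute difference. Alternatives changed the offset, the filter, the scaling, the variance trend, array weights, the replicate block, the probe sets per gene and the arrays included.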

Additional observations from a re-analysis of the deposited data

How the results depend on the processing

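The count of 105 probe sets past the threshold, 99 of them higher in the mutant, moved with most settings: 181 with an offset of 1, 64 with 64, 52 without the filter, 167 with a filter at the 60th percentile, 56 with median centring, 0 without the variance trend, 12 with 1 probe set per gene, 220 with the replicate block and 225 with the trend fitted on tested probe sets only. That last setting was added after seeing the data. Leaving out each array gave 0 to 34. Quantile normalization gave 116 and array weights 107. Of the member probe sets, 2 passed, and 4 did with an offset of 1, with the 60th percentile filter, with the replicate block and with the trend on tested sets only, these being Pls3 and 3 Lasp1 _x_at sets. Without the variance trend 0 passed, with 1 probe set per gene 1, and without each array 0 to 3. Of the related lists, 0 genes passed in the main setting. With an offset of 1 and with the 60th percentile filter 3 did (Rdx, Actb and Marcksl1), and with quantile normalization 2 (Rdx and Marcksl1). With the replicate block 3 did (Rdx, Marcksl1 and Marcks), and with the trend on tested sets only 4 (these and Actb). In the main setting Rdx had log2 differences of 0.47 on 1416179_a_at and 0.23 and -0.0054 on its other sets. Actb had 0.72 on 1419734_at and 0.06 on its far brighter set, 1436722_a_at. The median log2 difference of the member _x_at sets was 0.36, and 0.64 with an offset of 1 and 0.18 with 64. Why the counts moved was not tested, beyond the fewer arrays or probe sets that some settings hold. Deviations from the group means of samples with the same number correlated at 0.19, 0.13 and 0.09, so the numbers were not taken to pair the samples, though each sample correlated best with its own number.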

Other observations

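Cap1, whose product recycles actin monomers, read 275 and 366 in mutant brains 1 and 2 and 15.4 in mutant brain 3 on 1417461_at, against 438, 315 and 332 in wild-type brains. Its other probe set, 1417462_at, read 298, 300 and 14.0 in mutant brains, against 317, 319 and 295 in wild-type brains. Among 6681 tested probe sets at an intensity of 200 or more on their 5 higher arrays, 5 read at least 10-fold below all of those on a single array. These were both Cap1 sets and 1 of Phgdh (1454714_x_at, 19.2) on mutant array 3, and 2 of Xist on mutant array 2. They were named after their values were seen.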
